A study of Homo sapiens with 102 samples.

Results

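The genes described here were 174 ribosomal protein pseudogenes, copies of ribosomal protein genes that drew reads in a droplet drug screen of K562 cells. They were the rows of a table of 24965 genes whose symbol joins a large (RPL) or small (RPS) subunit gene name to a P and a number, and whose raw counts summed to at least 100 over 96 in-screen libraries. Such a symbol was carried by 948 rows, of which 175 met the count rule and 773 fell below it, 28 of these with no count in the screen. One of the 175, RPS19BP1, had a matching symbol by spelling alone. It is a protein-coding gene for a binding partner of RPS19, it has no parent, and it was kept apart from the 174. Members were selected on their summed counts, so their levels are given as a description. Just inside the rule were RPL12P10, RPL12P41, RPL6P19 and RPS16P2, each at 100 counts. Just outside it were RPS25P4 at 99 counts, RPL31P59 at 98 and RPS7P11 at 97. Each pseudogene was set beside its parent, the gene named by the symbol without the final P and number, and 46 parents were found.

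K562 is an established myelogenous leukaemia line, and every library, controls included, came from K562 cells that carry the BCR-ABL fusion and were incubated for 12 h. In-screen cells were enclosed in droplets with an ordered pair drawn from DMSO (the solvent), imatinib (an inhibitor of BCR-ABL), trametinib (an inhibitor of MEK) and the compound labelled YM115 (spelled YM155 in the study's text), which gave 16 ordered pairs in each of 3 runs. The set was made in 2 screens with different barcoding, labelled dT and Bio, and each screen had 3 separate DMSO controls. Doses are not in the labels, all libraries were pools of cells from 1 line, and nothing in the labels ties a run to a separate culture, so p-values measure the spread between libraries, which may be technical.

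In-screen libraries entered the comparisons with at least 1000 detected genes and at most 15% mitochondrial counts, which 48 of 48 dT libraries and 44 of 48 Bio libraries met. The 4 Bio libraries left out were all 3 of imatinib and imatinib and 1 of DMSO and trametinib, so Bio gave values for 15 of the 16 ordered pairs. Total counts ran from 127042 to 759756 in dT and from 81806 to 780143 in Bio. The separate controls held 256671 to 458945 counts in dT and 35742 to 89347 in Bio. They were not held to the filter, and mitochondrial counts took 10.2%, 31.0% and 36.9% of the dT controls and 5.10% to 28.1% of the Bio controls. The erythroid markers listed for K562 cells had counts for 12 of 12 genes in both screens, with a summed level of 14759 to 85705 CPM (counts scaled to the total of each library) in dT and 9117 to 55862 CPM in Bio. Of 3 T cell markers in the table, CD2 and CD3E were at 0 in dT and CD3E in Bio. Of 4 B cell markers, CD79A and MS4A1 were at 0 in dT and MS4A1 in Bio. Of 2 monocyte markers, LYZ was at 0 in dT and none in Bio, and all 4 fibroblast and epithelial markers had counts. The medians over libraries were 0 CPM for the 3 blood cell lists in both screens and 372 CPM (dT) and 8.63 CPM (Bio) for the fibroblast and epithelial list. The highest library reached 666 CPM in dT and 1977 CPM in Bio for T cell markers, 498 and 954 CPM for B cell markers, 5.74 and 2038 CPM for monocyte markers, and 1404 and 2111 CPM for fibroblast and epithelial markers.

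Ribosomal proteins are the protein part of the large and small ribosomal subunits, and their mRNAs are among the most abundant in dividing cells. Reverse transcription of such mRNAs by the machinery of mobile elements, followed by insertion into the genome, leaves processed pseudogenes: copies without introns, scattered over the chromosomes, most of which have no promoter of their own. Ribosomal protein genes are the best known source of such copies in mammals. Because a young copy differs from the spliced parent mRNA at few bases, a short read can match both, and a read count for a pseudogene is not by itself a measure of transcription from its locus.

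For the 3 pseudogenes with the most reads, and for RPS3AP26 as a copy that drew about as many reads as its parent, stretches of 59 bases, the length of the sequenced cDNA read, show how little separates a copy from its parent. They were taken from the GENCODE 29 transcripts (GRCh38), within the coding sequence of the parent and in the stretch with the most differences, are written 5′ to 3′ on the transcript strand, and the capitals mark the bases that differ. RPS15P4 lies at chr2:171517295-171517353 (minus strand) and its parent at chr19:1440379-1440437 (plus strand), with the difference T30C (parent base, position from the left end of the stretch, pseudogene base). RPL13P12 lies at chr17:17383498-17383556 (minus strand) and its parent at chr16:89562371-89562921 (plus strand, across a splice junction), with G13A, C21T and C48G. RPS15AP1 lies at chr20:21166530-21166588 (minus strand) and its parent at chr16:18789047-18789105 (minus strand), with G30C and T31C. RPS3AP26 lies at chr7:98385954-98386012 (minus strand) and its parent at chr4:151104190-151104248 (plus strand), with A30G.
RPS15P4: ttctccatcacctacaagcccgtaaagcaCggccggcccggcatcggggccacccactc
RPS15: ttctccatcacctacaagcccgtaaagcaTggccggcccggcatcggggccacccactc
RPL13P12: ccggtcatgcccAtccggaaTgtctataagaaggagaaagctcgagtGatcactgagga
RPL13: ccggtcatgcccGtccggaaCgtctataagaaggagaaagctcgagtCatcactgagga
RPS15AP1: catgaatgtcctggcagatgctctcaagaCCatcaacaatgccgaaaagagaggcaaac
RPS15A: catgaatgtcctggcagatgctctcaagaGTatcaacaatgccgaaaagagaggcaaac
RPS3AP26: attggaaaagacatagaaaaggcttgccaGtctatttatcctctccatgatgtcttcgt
RPS3A: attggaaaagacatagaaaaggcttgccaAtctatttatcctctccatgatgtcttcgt

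Over the whole alignment, RPS15P4 differed from RPS15 at 3 of 437 bases, RPL13P12 from RPL13 at 10 of 636, RPS15AP1 from RPS15A at 8 of 391 and RPS3AP26 from RPS3A at 4 of 784. Of all 59-base windows of RPS15P4, 48.1% occurred in the transcripts of no other gene and 45.0% also occurred in RPS15. The windows of RPL13P12 were unique to it in 60.0% and shared with RPL13 in 40.0%. For RPS15AP1, 86.5% were unique, and for RPS3AP26 34.2%. How reads that match several genes were assigned is not given in the sources used here, so each share of reads below is a share of the deposited counts.

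The 174 pseudogenes held 443325 of 27949651 in-screen counts, or 1.59%, and their 46 parents held 20.6%. Small subunit copies (71 pseudogenes of 19 parents) took 268789 counts and large subunit copies (103 pseudogenes of 27 parents) took 174536. The counts were concentrated: RPS15P4, RPL13P12 and RPS15AP1 held 70.5% of them, the 10 highest pseudogenes 82.9%, and the median pseudogene 264.5 counts. At least 1000 counts were reached by 24 pseudogenes, and 65 had fewer than 200. In a single library, the pseudogenes took 1.17% to 2.65% of the counts in dT (median 1.66%) and 0.828% to 1.74% in Bio (median 1.38%). Between 90 and 159 of the 174 had a count in a dT library, and between 76 and 157 in a Bio library.

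**Figure D1:**
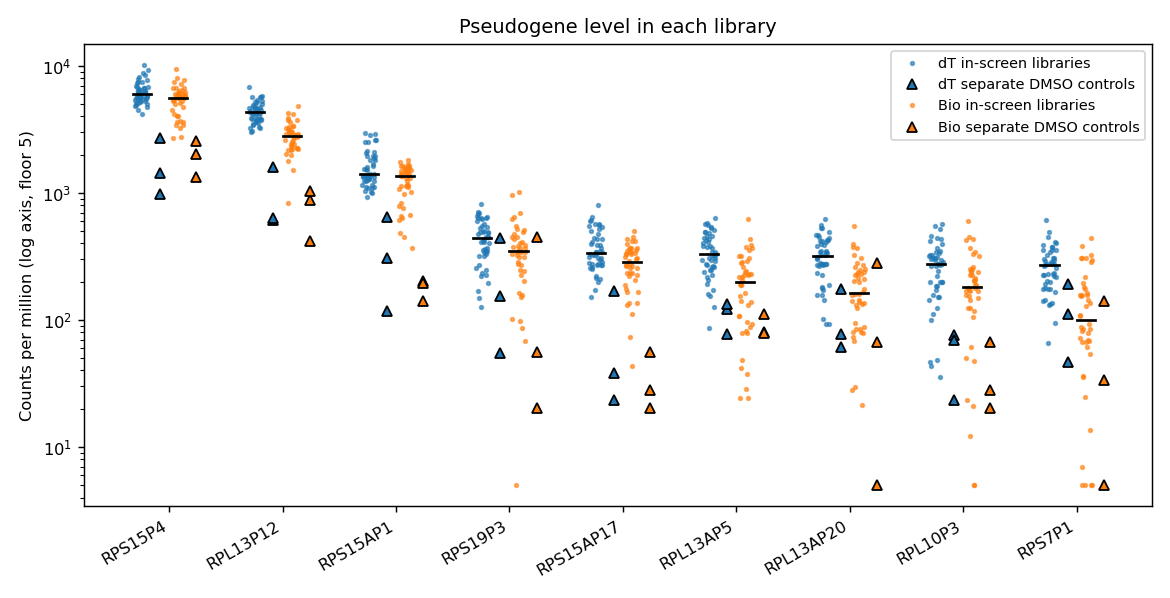
Level of the 9 pseudogenes with the most in-screen counts in each library, in CPM on a log axis, with values below 5 drawn at 5. Dots are in-screen libraries that passed the filter (48 dT, 44 Bio), black bars their medians and triangles the 3 separate DMSO controls of each screen. For RPS15P4 and RPL13P12 in dT, all 3 triangles lie below every dot.

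RPS15 is a small subunit protein near the decoding region, and its copy RPS15P4 was the member with the most counts. RPS15P4 (ENSG00000233762, chr2:171517270-171517716, overlapping no other annotated gene) held 166686 in-screen counts beside 427269 of RPS15. Its level ran from 4195 to 10167 CPM in dT, with a median of 5977, and from 2697 to 9411 CPM in Bio, with a median of 5608. It had counts in all 48 dT and all 44 Bio libraries, and no library held more than 2.75% of its total. Of the reads given to RPS15P4 or RPS15, RPS15P4 took 30.7% in dT (Wilson 95% interval 30.5% to 30.8%) and 24.7% in Bio (24.5% to 24.8%). These are shares of counts not adjusted for length, and the intervals, here and below, cover counting error only, since no step that collapses copies of a molecule is described. The share ran from 24.8% to 35.4% over the dT libraries (SD 2.56, n = 48), a variance 19.4 times that of counting alone. The other copies were small: RPS15P5 held 682 counts, and RPS15P9 257, of which 232 lay in 1 library.

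RPS15A is another small subunit protein, with 15 counted copies. RPS15AP1 (ENSG00000214535, chr20:21166206-21166596) lies in an intron of KIZ on the opposite strand and held 40902 counts beside 175166 of the parent. Its level had a median of 1398 CPM in dT (range 929 to 2987) and 1366 CPM in Bio (range 372 to 1828). It took 21.4% of pair reads in dT (21.2% to 21.6%) and 15.6% in Bio (15.3% to 15.8%). RPS15AP17 (ENSG00000225405, chr4:62105660-62106049), with 93.3% identity to the parent and 99.1% unique windows, held 9362 counts and took 5.92% of pair reads in dT (5.78% to 6.07%).

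RPS19, a small subunit protein that is mutated in Diamond-Blackfan anaemia, had 3 counted copies. RPS19P3 (ENSG00000240463, chr14:34568689-34569129, in an intron of SNX6 on the same strand) held 11453 counts beside 65096 of RPS19, matched the parent at 94.7% of bases, and had no window in common with another gene. It took 16.7% of pair reads in dT (16.3% to 17.0%) and 12.9% in Bio (12.6% to 13.3%). RPS7P1 (ENSG00000263266, chr17:28467822-28468406), a copy of the small subunit protein RPS7 with 99.1% identity, held 5979 counts beside 15763. Its share of pair reads was 32.3% in dT and 19.4% in Bio, and in single dT libraries it ran from 14.7% to 72.7%.

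Among large subunit copies, RPL13P12 stood first. RPL13P12 (ENSG00000215030, chr17:17383377-17384012, overlapping no other annotated gene) held 105116 counts beside 639680 of RPL13. Its level ran from 3027 to 6813 CPM in dT (median 4336) and from 838 to 4819 CPM in Bio (median 2821). It took 15.7% of pair reads in dT (15.6% to 15.8%) and 11.6% in Bio (11.5% to 11.8%), and over dT libraries from 11.5% to 24.6% (SD 3.16, n = 48). RPL13A, a large subunit protein that also silences transcripts of the interferon response, had 14 counted copies, of which RPL13AP5 held 8169 counts and RPL13AP20 7605 beside 52996 of the parent. RPL13AP5 took 14.6% and RPL13AP20 13.8% of their pair reads in dT. RPL10P3 (ENSG00000230734, chr9:117180628-117181095), a copy of RPL10 that overlaps the exon of the small nucleolar RNA gene SNORA70C on the same strand, held 6822 counts beside 27996. Its counts and those of SNORA70C cannot be separated by position there.

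**Figure D2:**
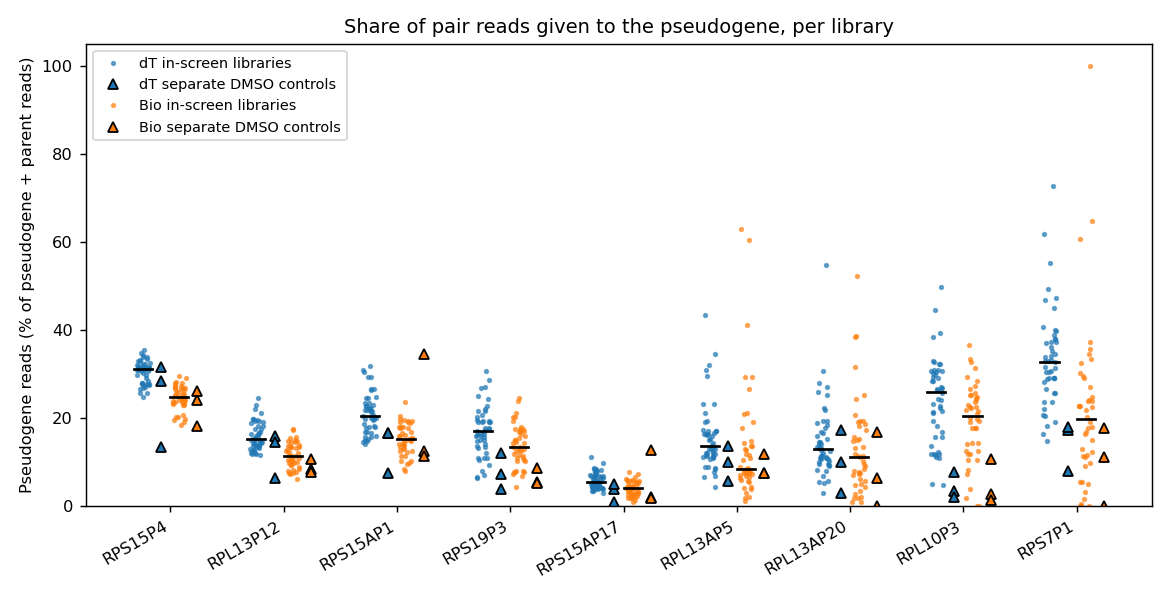
Reads given to a pseudogene as a percent of the reads given to it or its parent, per library, for the 9 pseudogenes with the most counts. Dots are in-screen libraries, black bars their medians and triangles the 3 separate DMSO controls of each screen. RPS15P4 lies between 24.8% and 35.4% in dT and between 18.4% and 29.5% in Bio, whereas RPS7P1 spans 14.7% to 72.7% in dT.

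Summed over families, the pseudogenes took 7.18% of the reads of pseudogenes and parents in the 92 libraries that passed. In dT libraries this share had a mean of 7.73% (SD 0.892, n = 48) and in Bio libraries 6.29% (SD 0.800, n = 44). Families differed widely, from 0.0319% for RPS16 to 89.6% for RPL17. In 3 families the copies held more counts than the parent. RPL17P18 held 405 counts beside 47 of RPL17, 14 copies of RPS3A held 5833 beside 1092, and 3 copies of RPL21 held 412 beside 277. For RPL21 this held in dT, with 194 counts beside 19, and not in Bio, with 218 beside 258.

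These 3 families differed in how the counts lay over libraries. RPL17P18 had counts in 23 of the 92 libraries and RPL17, a large subunit protein near the exit tunnel, in 4, and no library had both. RPL21P16, whose 483 bases all occur in RPL21, had counts in 14 libraries and RPL21 in 4, with 1 library in common. RPS3AP26 had counts in 87 libraries and RPS3A, a small subunit protein, in 76, of which 73 were shared. Genes found in most libraries must share many of them, and genes found in few need share none. By themselves, these overlaps therefore show neither a link nor the lack of one. RPS3AP26 took 47.8% of pair reads in dT (45.3% to 50.3%) and 52.8% in Bio (48.7% to 56.8%). RPL10AP6 had counts in 47 libraries, of which 45 also had counts of its parent RPL10A, a gene found in 57. Neither of these 2 genes had a count in 33 libraries, and the copy stood alone in 2. For RPS3AP26 and RPS3A these numbers were 2 and 14. Whether any overlap exceeded that given by detection of each gene alone was not tested.

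**Figure D3:**
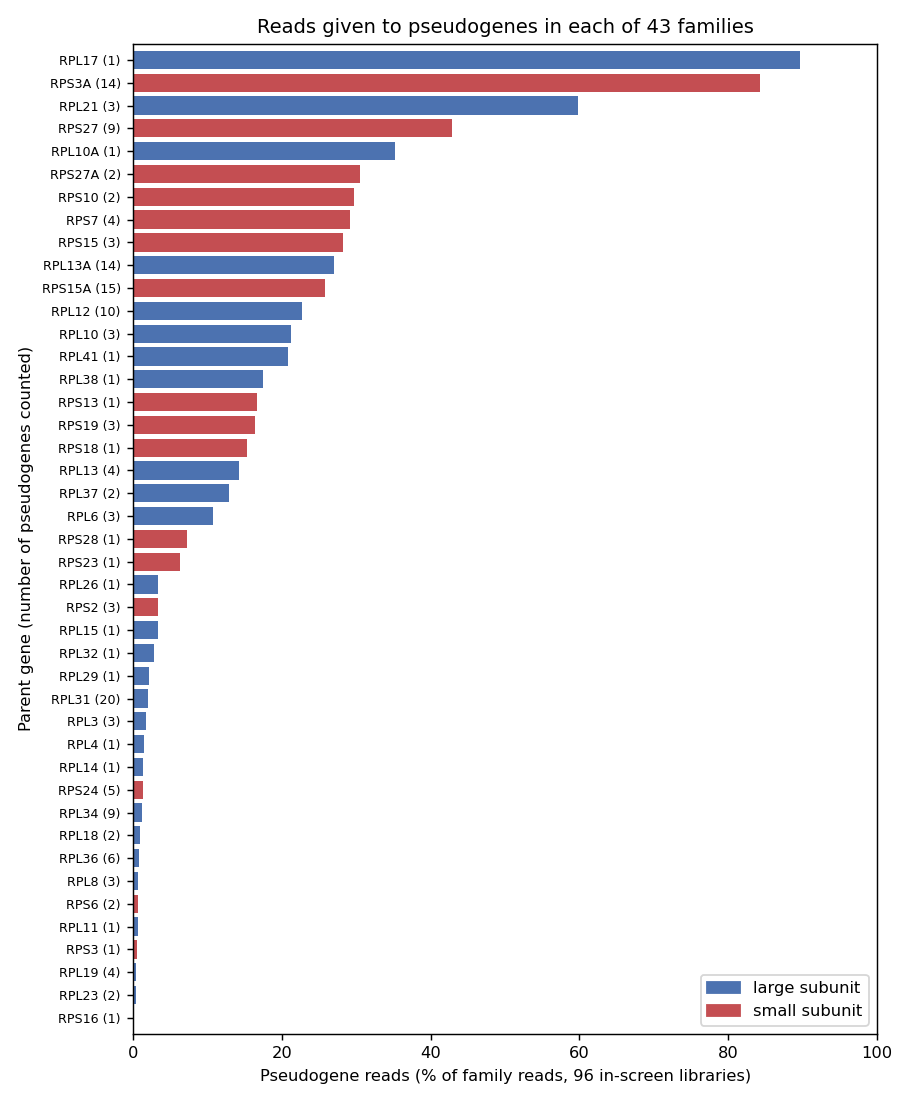
Reads of all counted pseudogenes of a parent as a percent of the reads of the family, summed over 96 in-screen libraries, for 43 parents with the number of pseudogenes in brackets. Bars start at 0, blue marks large and red small subunit genes. RPL17, RPS3A and RPL21 lie above 50%, and RPS16 lies lowest, at 0.0319%.

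The remaining large subunit copies are given by family, with in-screen counts. RPL31 had the most copies, 20, beside the most abundant parent at 805666 counts, and the copies together took 1.90% of the family. RPL31P4 held 5568 counts, RPL31P2 2715, RPL31P31 1044, RPL31P11 753, RPL31P37 657, RPL31P44 587, RPL31P35 584, RPL31P10 529 and RPL31P3 507. Lower were RPL31P12 at 364, RPL31P49 at 347, RPL31P39 at 324, RPL31P18 at 286, RPL31P63 at 248, RPL31P28 at 245, RPL31P46 at 234, RPL31P17 at 175, RPL31P61 at 139, RPL31P7 at 136 and RPL31P23 at 122. The most abundant copy was thus far below its parent, with RPL31P4 at 0.660% of pair reads in dT and 0.725% in Bio, and its share in single dT libraries stayed between 0.466% and 0.910%. RPL34, another large subunit protein, had 554371 counts and 9 copies. RPL34P27 held 2466, RPL34P18 956, RPL34P1 696, RPL34P31 558, RPL34P6 454, RPL34P33 311, RPL34P11 303, RPL34P26 301 and RPL34P34 217. RPL36 had 219861 counts, and its copies RPL36P14, RPL36P12, RPL36P5, RPL36P2, RPL36P16 and RPL36P3 held 986, 273, 141, 136, 119 and 111. In these 3 families of highly expressed parents the copies took under 2% of the reads.

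RPL12, part of the base of the ribosomal stalk, had 19471 counts and 10 copies that together took 22.7% of the family. RPL12P13, one of 2 members annotated as unprocessed, held 4167, RPL12P12 367, RPL12P8 243, RPL12P33 209, RPL12P15 160, RPL12P17 130, RPL12P38 126 and RPL12P4 111. The other copies of RPL13A held 1166 (RPL13AP14), 595 (RPL13AP6), 477 (RPL13AP7), 281 (RPL13AP22), 217 (RPL13AP2), 212 (RPL13AP24), 192 (RPL13AP13), 162 (RPL13AP16), 161 (RPL13AP3), 146 (RPL13AP25), 127 (RPL13AP8) and 120 (RPL13AP12). The other copies of RPL13 were small, with RPL13P6 at 406, RPL13P2 at 403 and RPL13P5 at 292. Beside RPL10P3, the RPL10 family held RPL10P9 at 414 and RPL10P16 at 310. RPL10A had 1832 counts and its copy RPL10AP6 993. RPL41, the shortest ribosomal protein, had 4021 counts and RPL41P2 1052. RPL37 had 11470, RPL37P6 1545 and RPL37P2 139. RPL6 had 11361 counts, RPL6P27 1131 and RPL6P10 137. The copies took 35.2% of the RPL10A family, 20.7% of the RPL41 family, 12.8% of the RPL37 family and 10.7% of the RPL6 family.

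Among the copies of RPL21, RPL21P16 held 183, RPL21P23 126 and RPL21P122 103. RPL3, a protein close to the peptidyl transferase centre, had 46558 counts, and RPL3P4, RPL3P7 and RPL3P2 held 364, 243 and 161. RPL8 had 153165, with RPL8P3 at 450, RPL8P4 at 342 and RPL8P1 at 227. RPL19 had 199449, with RPL19P5 at 186, RPL19P16 at 178, RPL19P6 at 125 and RPL19P4 at 101. RPL23 had 310046, with RPL23P8 at 736 and RPL23P2 at 161. RPL18 had 41409, with RPL18P13 at 270 and RPL18P11 at 104. The last 4 parents are abundant, and their copies took under 1% of the family reads in each case.

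Single copies were counted for 9 further large subunit genes. RPL11, which binds MDM2 when ribosome assembly is disturbed, had 71646 counts and RPL11P3 410. RPL14 had 15984 and RPL14P1 214, and RPL4 had 10854 and RPL4P4 153. RPL29 had 6885 and RPL29P25 146, RPL32 had 5099 and RPL32P18 145, and RPL26 had 3626 and RPL26P6 125. RPL15 had 3460 and RPL15P3 118, and RPL38 had 683 and RPL38P2 144. RPL17P18 was described above. Of these 9, RPL38P2 and RPL17P18 took the largest shares of family reads, at 17.4% and 89.6%.

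Among the small subunit families, the other RPS15A copies were RPS15AP11 at 3611 counts, RPS15AP40 at 2425, RPS15AP38 at 1408, RPS15AP18 at 714, RPS15AP28 at 509, RPS15AP15 at 505, RPS15AP10 at 441, RPS15AP12 at 203, RPS15AP24 at 162, RPS15AP13 at 147, RPS15AP9 at 131 and RPS15AP7 at 107, with RPS15AP5 the lowest. RPS3AP26 held 1055, RPS3AP49 860, RPS3AP47 640, RPS3AP6 572, RPS3AP5 551, RPS3AP25 420, RPS3AP20 327, RPS3AP21 302, RPS3AP44 264, RPS3AP18 211, RPS3AP37 185, RPS3AP4 176, RPS3AP36 161 and RPS3AP13 109. The highest copy of RPS3A held 18.1% of the copies' total, whereas RPS15P4 held 99.4% in its family. RPS27 had 3231 counts and 9 copies: RPS27P17 at 574, RPS27P7 at 381, RPS27P3 at 369, RPS27P21 at 357, RPS27P13 at 189, RPS27P11 at 160, RPS27P9 at 150 and RPS27P6 at 141, with RPS27P22 the lowest. Together they took 42.9% of the family.

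RPS27A, made as a fusion with ubiquitin, had 5520 counts, with RPS27AP16 at 2314 and RPS27AP5 at 109. GENCODE 29 types RPS27AP5 as protein coding. RPS7 copies beside RPS7P1 were RPS7P3 at 201, RPS7P4 at 152 and RPS7P10 at 144, and RPS19 copies beside RPS19P3 were RPS19P7 at 697 and RPS19P1 at 557. RPS10 had 1075 counts, with RPS10P27 at 309 and RPS10P16 at 145. RPS24 had 156039, with RPS24P19 at 908, RPS24P7 at 621, RPS24P6 at 220, RPS24P8 at 195 and RPS24P16 at 101. RPS2 had 20460, with RPS2P32 at 340, RPS2P7 at 220 and RPS2P5 at 140. RPS6, a target of S6 kinase, had 136072, with RPS6P26 at 608 and RPS6P25 at 265. As for RPL31, the copies of the abundant RPS6 and RPS24 took small shares of their families, 0.637% and 1.29%.

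The following 6 small subunit genes had 1 counted copy each. RPS23 had 12368 counts and RPS23P8 822, RPS18 had 3761 and RPS18P5 677, and RPS28 had 2587 and RPS28P7 201. RPS13 had 889 and RPS13P2 178, and RPS3, at the mRNA entry site, had 38572 and RPS3P3 170. RPS16 had 313488 beside the 100 counts of RPS16P2. RPS18P5 took 15.3% and RPS13P2 16.7% of their families, whereas RPS16P2 took 0.0319%.

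The share of pair reads was higher, on the whole, for closer copies. For 168 pseudogenes at least 50% of the transcript could be aligned to the parent, with identities from 82.4% to 100% (median 94.6%). Sorted by identity into groups of 42 copies, the median share in dT was 0.0946% in the group with the lowest identity (up to 91.9%). In the next groups the medians were 0.280% and 1.08%, and in the group with the highest identity (97.3% and above) 10.0%. The last group held 343361 counts, against 13090 in the lowest. The groups overlapped: shares in the lowest one reached 71.2% and in the highest one went down to 0.286%. Members share parents and libraries, so these values describe the table and were not tested. By windows, 55 pseudogenes were unique along their whole length and 19 along less than 50% of it. RPS28P7 and RPL21P16 had no unique window and nevertheless held 201 and 183 counts.

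**Figure D4:**
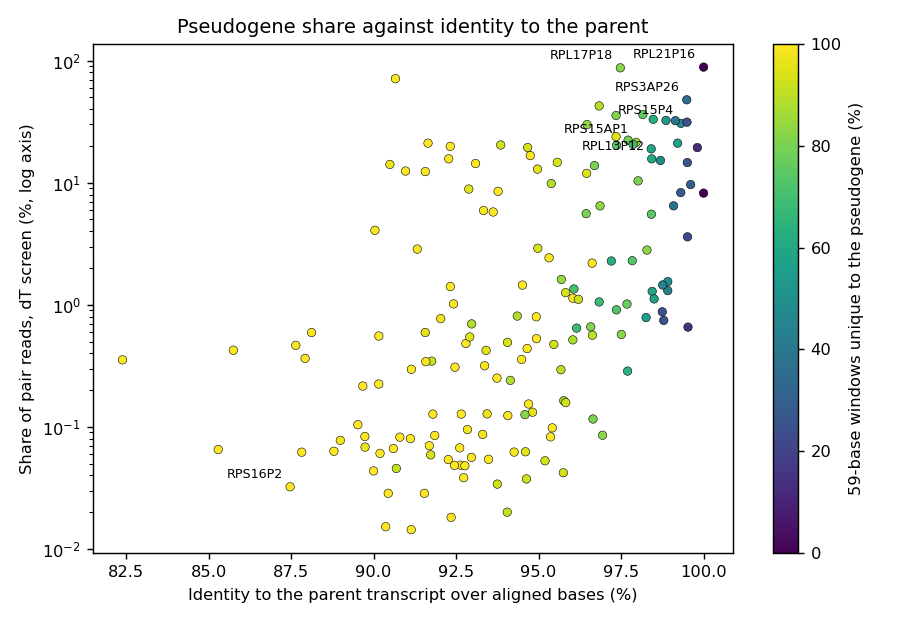
Share of pair reads given to each pseudogene in the dT screen (percent, log axis) against its identity to the parent transcript (percent of aligned bases), for pseudogenes aligned over at least 50% of their length and with a count in dT. Colour gives the percent of 59-base windows found in no other gene. RPL21P16 and RPL17P18 lie at the top, RPS16P2 far lower at lower identity.

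A count was found in at least 50% of dT libraries for 161 pseudogenes and in at least 50% of Bio libraries for 143. In all 48 dT libraries 32 were found, and in all 44 Bio libraries 13. The other 13 were below 50% in both screens: RPL17P18, RPS2P32, RPS15P9, RPL31P46, RPL21P16, RPS13P2, RPL12P15, RPL29P25, RPL38P2, RPL21P23, RPL13AP12, RPL15P3 and RPL21P122. For some of these, 1 library decided membership. All 146 counts of RPL29P25 lay in the first run of trametinib and DMSO in dT, all 126 of RPL21P23 in the second run of DMSO and DMSO in Bio, and 92.5% of those of RPL13AP12 and 90.3% of those of RPS15P9 in 1 library each. For 6 pseudogenes a single library held over 50% of the counts.

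In GENCODE 29, 161 of the 174 were typed as processed and 10 as transcribed processed pseudogenes, 2 as unprocessed and 1 as protein coding, and 161 had a single exon. They were spread over 23 chromosomes. Of the 174, 90 overlapped no other annotated gene, 75 lay in an intron of another gene and 9 overlapped an exon. An overlapping gene on the same strand was found for 36. Whether counting used strand is not given in the sources used here, so reads of an overlapping gene cannot be told apart from reads of the copy at those loci, above all for the 9 in exons (RPL10P3, RPS15AP28, RPL10P16, RPL13P5, RPL31P46, RPL36P3, RPS27AP5, RPL18P11 and RPL21P122).

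To ask whether pseudogene counts followed the drugs, each drug was fitted as present or absent in a pair, with run as a block. No member passed the threshold for a drug in either screen (edgeR's quasi-likelihood test, Benjamini-Hochberg adjustment over all genes tested, threshold 0.05). Of the 175 rows, 56 passed the filter on low counts in dT and 39 in Bio. For imatinib in dT, 0 of 56 were called where 2.88% of all 3930 genes were, and 4 of the 56 had an unadjusted p under 0.05, beside 13.9% of all genes. For trametinib in dT, 0 of 56 were called against a background of 1.37%, with 1 at an unadjusted p under 0.05 beside 12.6%. For YM115 in dT, 0 of 56 were called against 2.62%, with 3 unadjusted (2 pseudogenes and RPS19BP1) beside 14.3%. In Bio, none of the 39 was called, against a background among 1754 genes of 2.34% (imatinib), 1.94% (trametinib) and 2.74% (YM115), with 1 at an unadjusted p under 0.05 for each drug, beside 15%, 12.4% and 16.0% of all genes. DESeq2 called 3 of 56 members for imatinib in dT (RPS15AP1, RPS15AP17 and RPS15P4, all higher), where it called 4.02% of all genes. It called 0 members for trametinib and YM115 in dT, where it called 2.60% and 3.72% of all genes, and 0 in Bio, where it called 6.27% (imatinib), 4.62% (trametinib) and 6.73% (YM115).

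RPS15P4 had the smallest adjusted p of the pseudogenes for imatinib and for YM115 in dT. Its level ran from 4195 to 9361 CPM (median 6581) in the 21 libraries with imatinib and from 4961 to 10167 CPM (median 5627) in the 27 without, so the groups overlapped. On the log2 scale the fitted difference was 0.27 (SE 0.09, adjusted p = 0.124 in edgeR's test). With YM115 the fitted difference was also 0.27 (SE 0.09, adjusted p = 0.105). The parent RPS15 rose with imatinib in dT, by 0.27 on the log2 scale (SE 0.08, adjusted p = 0.0417 in edgeR's test). RPL13 rose by 0.22 (SE 0.06, adjusted p = 0.0403), beside 0.21 (SE 0.10, adjusted p = 0.293) for RPL13P12. In Bio the values with imatinib were -0.17 (SE 0.17) for RPS15P4 and -0.14 (SE 0.13) for RPS15. They were -0.003 (SE 0.12) for RPL13 and 0.06 (SE 0.22) for RPL13P12, so the rise in dT was not seen in Bio. Whether a copy and its parent differed in response was not tested.

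Over the 55 pseudogenes tested in dT, the median log2 fold change with imatinib was 0.31, beside 0.07 over all genes, and 44 of 55 values were above 0 beside 2053 of 3930. With trametinib the median was 0.09 beside 0.23, and with YM115 0.25 beside 0.21. In Bio the medians over 38 pseudogenes were -0.01 (imatinib), 0.02 (trametinib) and 0.18 (YM115), beside 0.12, 0.30 and 0.53 over all genes. Copies were also set beside their parents, pair by pair. For YM115 the median was 0.25 for copies and -0.004 for parents over 53 dT pairs, with a median difference of 0.23. Over 36 Bio pairs these medians were 0.20, -0.19 and 0.35. The difference stayed within the summed standard errors for 48 of the dT pairs and 34 of the Bio pairs. Imatinib gave median differences of 0.15 (dT) and 0.03 (Bio), and trametinib -0.006 and -0.04. Pairs share parents, and this was not tested. Among the parents, 4 of 44 rose with imatinib in dT (RPL34, RPL31, RPL13 and RPS15), where 0.865% of all genes did, and 0 passed for the other drugs or in Bio. Of the ribosomal protein genes as a list, 3 of 43 large subunit genes and 1 of 30 small subunit genes rose with imatinib in dT, the same 4 genes, and 0 fell, and 0 passed in the other 5 comparisons. RPL34 had the smallest p of these, at 0.30 on the log2 scale (SE 0.07, adjusted p = 0.00670 in edgeR's test). In Bio the values with imatinib were -0.02 (SE 0.16) for RPL34 and 0.07 (SE 0.13) for RPL31.

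**Figure D5:**
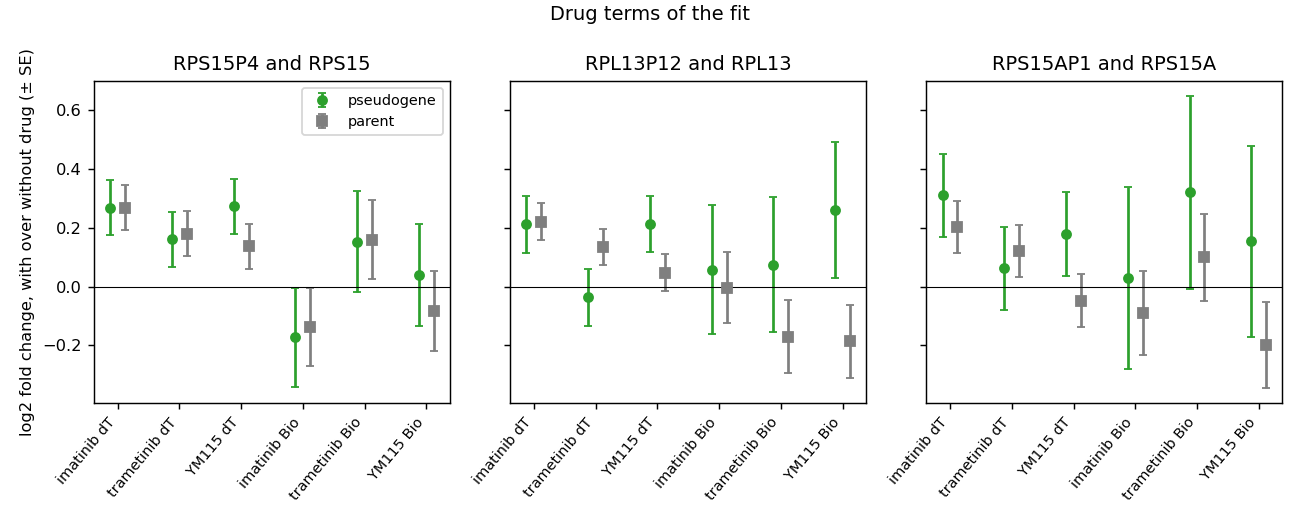
Fitted log2 fold changes with over without each drug, in both screens, for RPS15P4, RPL13P12 and RPS15AP1 (circles) and their parents (squares), with bars of 1 standard error. The values for imatinib in dT lie between 0.20 and 0.31 for all 6 genes, and the bars are wider in Bio than in dT.

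The share of pair reads was also set beside the drugs, as values without a test. For RPS15P4 in dT the mean share was 31.7% (SD 2.12, n = 21) with YM115 and 29.6% (SD 2.52, n = 27) without. In Bio it was 25.5% (SD 2.87, n = 21) and 23.8% (SD 2.37, n = 23). For RPL13P12 the shares were 17.1% (SD 3.48) with and 15% (SD 2.60) without in dT, and 12.8% (SD 2.32) and 10.5% (SD 2.82) in Bio. For RPS15AP1 they were 22.6% (SD 4.96) and 20.1% (SD 4.04) in dT, and 16.4% (SD 3.67) and 14.1% (SD 3.14) in Bio. The mean with YM115 was above that without it in all 6 cases, and the ranges overlapped. The SDs give the spread of single libraries and not the error of a mean. Pooling hides the order of the pair. With YM115 second, RPS15P4 means in dT were 32.1% (DMSO), 33.3% (imatinib) and 32.7% (trametinib). With YM115 first they were 30.9%, 30.3% and 30.1%, beside 30.1% in DMSO and DMSO. In Bio they were 27.2%, 27.0% and 26.6% second and 25.2%, 23.7% and 23.0% first, beside 24.3%. RPS15AP1 with imatinib in Bio went the other way, at 16.3% second and 19.3% first. With imatinib the RPS15P4 shares were 30.2% (SD 2.71) and 30.8% (SD 2.46) in dT.

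Differences among the ordered drug pairs were tested jointly, over 16 pairs in dT and 15 in Bio. In dT, 0 of 71 members passed where 0.303% of 6263 genes did, with 3 of the 70 pseudogenes at an unadjusted p under 0.05 beside 48.4% of all genes, and DESeq2 called 3, with 2.16% of all genes. RPS15P4 had an adjusted p of 0.0620 in edgeR's test. Its mean level ran over conditions from 4480 CPM (SD 267, n = 3) in DMSO and imatinib to 8108 CPM (n = 3) in imatinib and YM115. With the order reversed, its mean was 6724 CPM (SD 1018, n = 3) in imatinib and DMSO. In YM115 and imatinib it was 6148 CPM (SD 112, n = 3), so the extremes were not shared by both orders. In imatinib and YM115, picked as the highest condition, its values were 7536, 7427 and 9361 CPM, and in DMSO and DMSO 5184, 4961 and 5295 CPM, which did not overlap. The share of pair reads was 33.1%, 31.4% and 35.4% in the first of these conditions and 33.3%, 25.8% and 31.3% in the second. Of the 44 parents tested in dT, RPL31 and RPL23 passed, and 8 passed when the counts of the copies were added to their parents. Among them were RPL13, RPL23, RPL3, RPL31, RPL34 and RPS15, in a fit that called 1886 of 6195 genes in place of 19 of 6263.

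In Bio, 1 of 61 members passed where 22.9% of 4888 genes did, and it was RPS19BP1, the coding gene, with an adjusted p of 0.0231 in edgeR's test. No pseudogene passed, with 0 of 60 at an unadjusted p under 0.05 beside 47.3% of all genes, and DESeq2 called 0 members and 0 genes in all. The background of this joint test thus depended on the method, so it cannot show that the pseudogenes were more stable than other genes. RPS19BP1 was at 0 CPM in all libraries of DMSO and DMSO and of imatinib and DMSO, at 1480 to 4009 CPM in DMSO and imatinib, and at 960 to 5477 CPM in YM115 and imatinib. In the reverse order, imatinib and YM115, it was at 6.70, 0 and 2114 CPM. It was at 0 in 13 of the 44 libraries. Its call was lost on leaving out any 1 of the 3 runs and with a filter on detection in 50% of libraries. Without the run block 2 members passed, RPL12P15 and RPS19BP1.

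The separate DMSO controls were compared with in-screen DMSO and DMSO to ask whether the levels of the copies differed between them. How the separate controls were made, and whether in droplets, is not in the labels. In dT, RPL13P12 was the 1 member of 73 that passed, where 0.116% of 6917 genes were called and 0.0867% were called lower. An unadjusted p under 0.05 was found for 3 of the 72 pseudogenes and for 16.1% of all genes. Its levels were 4674, 4278 and 4614 CPM in the screen and 614, 635 and 1591 CPM in the separate controls, with no overlap. On the log2 scale the difference was -1.70 (SE 0.39, adjusted p = 0.0492 in edgeR's test). The parent RPL13 was lower too, at 23157, 25550 and 19106 CPM in the screen and 9007, 3319 and 9243 CPM in the controls, a log2 difference of -1.07 (SE 0.23, adjusted p = 0.0244). The call for RPL13P12 was lost without the run block, on leaving out any 1 run, with only the 6 libraries compared, and against the 1 control with at most 15% mitochondrial counts, and DESeq2 called 12 of 73 members, all lower, with 7.62% of all genes.

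RPS15P4 stood at 5184, 4961 and 5295 CPM in the dT screen and at 982, 1442 and 2700 CPM in the controls, a log2 difference of -1.09 (SE 0.31, adjusted p = 0.296 in edgeR's test). In Bio it stood at 5968, 5858 and 5794 CPM and at 2042, 2585 and 1346 CPM, again without overlap, with -1.54 (SE 0.97, adjusted p = 0.328). No member passed in Bio (0 of 64 in edgeR's test), where 0.0487% of 6158 genes were called. An unadjusted p under 0.05 was found for 0 of the 63 pseudogenes and for RPS19BP1, the coding gene, beside 10.0% of all genes. DESeq2 called 9 of 64 members, with 12.2% of all genes. All fold changes of this comparison are relative to the scaling: the median over all genes tested was 3.39 in dT and 5.34 in Bio, and 2.32 and 4.06 with DESeq2 size factors. The median over the tested pseudogenes was -0.13 (72 copies) and -1.76 (63 copies). The controls differed from the screen in mitochondrial counts as well, as given above, and in the share of counts of ribosomal protein genes, which was 18.1%, 6.29% and 19.8% in the dT controls and 22.4%, 24.1% and 23.9% in dT DMSO and DMSO. Their part in these differences was not tested. In such pools, fewer cells and less RNA per cell cannot be told apart.

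The share of pair reads in the separate controls fell within the in-screen range for some copies and outside it for others. RPS15P4 took 13.5%, 31.6% and 28.4% in the dT controls, beside 33.3%, 25.8% and 31.3% in dT DMSO and DMSO. RPL10P3, the copy of RPL10 that overlaps SNORA70C, took 3.57%, 2.08% and 7.69% in the dT controls, and 4.75% to 49.8% (median 26.0%) in the 48 in-screen dT libraries. Pooled, this was 4.58% (3.56% to 5.88%) in the controls and 16.7% (14.4% to 19.4%) in DMSO and DMSO. RPS7P1 took 14.0% (11.9% to 16.4%) in the pooled dT controls and 38.8% (34.3% to 43.5%) in DMSO and DMSO. In Bio the pooled intervals overlapped for both copies, on few counts. There RPS7P1 took 9.52% in the controls (5, 3 and 0 counts) and 8.73% in DMSO and DMSO (0, 2 and 9 counts). RPL10P3 took 4.79% (1, 6 and 1 counts) and 7.99% (28, 0 and 1 counts). So few counts cannot show whether the contrasts of dT were present in Bio. The fitted log2 fold changes in dT were -1.47 (SE 1.30) for RPL10P3 and -0.89 (SE 1.24) for RPS7P1, and neither passed.

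Between the screens, counts were summed per run, which gave 3 sums each. No member passed (0 of 169 in edgeR's test, where 0.0431% of 6965 genes did, with 1 at an unadjusted p under 0.05 beside 7.37% of all genes, and 0 by DESeq2, which called 3.76% of all genes). RPL13P12, the 1 member at an unadjusted p under 0.05, had a log2 ratio of dT to Bio of 0.42 (SE 0.17, adjusted p = 0.577), beside -0.09 (SE 0.21) for RPL13. RPS15P4 had 0.03 (SE 0.16), beside -0.40 (SE 0.14, adjusted p = 0.405) for RPS15. When the 92 libraries were used in place of sums, 7 of 47 members were called, with 8.32% of all genes, and all 7 were higher in dT: RPL13AP20, RPL13AP5, RPL13P12, RPS15AP1, RPS15P4, RPS3AP47 and RPS7P1. In that fit libraries of 1 run count as independent. The median over all genes was then 0.54, and the 7 values are relative to it.

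The share of pair reads is free of that scaling. For RPS15P4 the 3 runs gave 31.5%, 28.1% and 32.2% in dT and 22%, 26.5% and 25.7% in Bio. Every dT run lay above every Bio run. For RPS7P1 the runs gave 34.1%, 30.9% and 31.6% in dT and 18.5%, 18.6% and 23.0% in Bio, again without overlap. For RPL13P12 they gave 15.3%, 13.6% and 18.5% in dT and 10.2%, 13.6% and 11.8% in Bio, which met. Among 23 pseudogenes with counts in all dT and at least 42 Bio libraries, the pooled share in dT was 0.879 to 1.48 times that in Bio (median 1.07), and it was higher in dT for 16. With 3 runs against 3 an exact two-sided permutation test cannot go below 0.10, and none was run.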

How the data were processed

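The authors deposited raw counts per gene and library, obtained from barcoded poly-dT cDNA sequenced with a 59-base cDNA read. The submitters' processing notes name STAR 2.4.2a and GRCh38. The annotation, the use of strand and the treatment of reads that match several genes are not given in the sources used here. A symbol was found for 24539 of 24965 genes, and 24646 matched GENCODE 29 (GRCh38). Every row names a gene and every column a sample of the series. Members and gene lists were chosen with earlier results of these data known.

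Counts were fitted per screen with the quasi-likelihood test of edgeR 4.0.16 (R 4.3.3; scaling by TMM, low counts removed by filterByExpr, Benjamini-Hochberg adjustment over all genes tested, threshold 0.05). Run was a block, since the series' design text gives each replicate of a screen its own raw file. Deviations from the condition means had a mean correlation of 0.0244 in dT and 0.0274 in Bio for libraries of the same run, and of -0.0122 and -0.0137 otherwise. The separate controls were fitted together with all in-screen libraries. DESeq2 1.42.0, other filters, other member thresholds (50 and 200 counts), leaving out each run and adding copies to parents were alternatives, and 2 (controls with at most 15% mitochondrial counts, per screen) were added after seeing the data. The scripts were tested on simulated data. Pseudogene transcripts were aligned to parents with biopython 1.88, and 59-base windows were compared between all GENCODE 29 transcripts. CPM is scaled to the total count of a library, and the deposited counts were not changed. Shares have Wilson intervals (scipy 1.17.1).

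By rule, the text names the 10 members with the most counts, every member with a count in at least 50% of the passing libraries of a screen, every member past the threshold, the neighbours of the 100-count limit, and their parents. Some genes that meet the rule, with their copies, are not reported here. The other members below 50% were named after their values were seen.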

Additional observations from a re-analysis of the deposited data

Results flagged for a closer look

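RPL13P12 had a higher pooled level in the 4 Bio libraries left out by the library filter (3 of imatinib and imatinib and 1 of DMSO and trametinib, 17882 to 93932 counts) than in in-screen Bio DMSO and DMSO, and 1 library carried the difference. Pooled, it had 568 of 167283 counts, or 3395 CPM (Wilson 95% interval 3128 to 3686), beside 1965 CPM (1822 to 2118). The library of DMSO and trametinib held 527 of the 568 counts, and the other 3 libraries pooled to 41 of 73351 counts, or 559 CPM (412 to 758), below DMSO and DMSO. The pooled level lay within the range of the passing Bio libraries, 838 to 4819 CPM, and DMSO and DMSO had the lowest mean of the 15 in-screen Bio conditions, 1900 CPM (SD 354, n = 3). The intervals cover counting error only, and the difference was not tested.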

How the results depend on the processing

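For imatinib in dT, where 0 members passed, DESeq2 size factors gave 1 and DESeq2 3. For YM115 in dT, a filter on a count in at least 50% of libraries gave 1 (RPS3P3, lower). For trametinib in Bio, no filter on low counts gave 1 (RPL12P15) and the 50% filter 1 (RPL10P9), and for YM115 in Bio, keeping all libraries gave 1 (RPL10AP6) and leaving out 1 run in turn 0 to 1. For drug pairs in dT, DESeq2 gave 3, the 50% filter 1 (RPS15P4) and the fit without the replicate block 1 (RPS2P32), and adding copies to parents raised the parents called from 2 to 8. For drug pairs in Bio, where 1 member passed, DESeq2 gave 0, the 50% filter 0, no library filter 2 (RPL10P9 and RPS15P4), the fit without the replicate block 2 and leaving out a run 0 to 0, and parents went from 0 to 1 (RPL21) with copies added. For the separate controls in dT, where 1 member passed, DESeq2 size factors gave 3, DESeq2 12, no filter on low counts 0, no replicate block 0, only the 6 libraries 0, leaving out a run 0 to 0, and controls with at most 15% mitochondrial counts 0, an alternative chosen after seeing the data that leaves 1 control, assumed to vary like the other groups. For the separate controls in Bio DESeq2 gave 9, and between the screens libraries in place of sums gave 7. The cause was not tested in any of these. With the run number as replicate block, 0 members passed between the screens. The share of family reads given to pseudogenes, 7.18%, stayed within 1 SD over runs under all 6 alternatives. Depth limits these tests: 55 of the 174 pseudogenes in dT and 38 in Bio had counts enough for the drug fits.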

Other observations

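Of 604 rows named as copies of the listed parents of other pseudogene families, 48 had at least 100 in-screen counts, and these held 29258 counts or 0.105% of the total, with a median of 198 counts. RPLP0P2 led with 9305 of them. It is a copy of the ribosomal stalk gene RPLP0 whose symbol falls outside the rule, so the list is not free of ribosomal protein copies. The counts of the parents were not set beside these. Of these 48, 12 were tested for each drug in dT and 9 in Bio, and 0 passed in edgeR's test, and the unadjusted p was under 0.05 for 1 (imatinib), 0 (trametinib) and 1 (YM115) in dT and for 1, 0 and 2 in Bio.

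The 773 rows below the count limit held 11503 in-screen counts. In the 6 separate controls, 277 of them had a count, 637 counts in all, beside 7298 for the members, and RPL21P65 had the most, with 27.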
